A study of Mus musculus with 45 samples.

Results

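The genes described are the core machinery of N6-methyladenosine (m6A) that the rule named: the writers Mettl3, Mettl14, Wtap and Zc3h13, the readers Ythdf1, Ythdf2, Ythdf3 and Ythdc1, and the erasers Alkbh5 and Fto. All 10 listed genes were found by symbol in the tables, out of 53491 genes. The rule used no measured value to pick them, but the list was drawn up with earlier results of these data known. m6A is a methyl mark on internal adenosines of mRNA. Writers place it on newly made transcripts in the nucleus, readers with a YTH domain bind it and steer splicing, translation or decay, and erasers can remove it. In the embryonic cortex the mark is known for its part in the timing of neurogenesis and in the turnover of transcripts that set cell fate.

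SLAM-seq, which reads 4-thiouridine (4sU) in RNA as T-to-C conversions after alkylation, was run on primary cortical cells of wild-type (WT) mouse embryos on days E11.5, E14.5 and also E16.5. There were 3 biological replicates a stage, named A, B and C, and each pooled the cortices of 7 embryos (E11.5) or of 2 (both later stages). Dissociated cells of every pool were split over 5 wells in neural progenitor medium with bFGF, labelled with 100 uM 4sU for 20 h and chased with 5 mM uridine, and each well gave 1 library at 0, 2, 4, 8 or 12 h of chase, 45 libraries in 15 groups. All groups therefore shared the WT genotype, the labelling and the culture, no unlabelled library was used here, and a level at 0 h is that of cells after labelling in culture. Cell types were not separated, so that fewer cells of a type and less RNA per cell cannot be told apart.

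The libraries held 15938793 to 43893597 recovered reads (median 32988625) over genes. Levels are given in cpm, reads per 1000000 reads of a library total that was larger than the recovered reads over genes. Radial glia markers (Sox2, Pax6, Nes, Hes5 and Vim, all detected) summed to 7919 to 8425 cpm at E11.5, 2502 to 3189 cpm at E14.5 and 978 to 1074 cpm at E16.5. In contrast, 5 neuron markers summed to 1665 to 2063, 2941 to 3307 and 4631 to 5051 cpm. Of the markers of other cells, the 3 erythroid genes summed to 1466 to 3204 cpm at E11.5 and 78.9 to 189.7 cpm later, and the meningeal genes Col3a1 and Col1a1 to 329 to 515 cpm at E11.5 and 3.85 to 13.0 cpm later. Between E11.5 and E16.5 the interneuron markers (Dlx2 and Gad2) went from 24.9 to 31.6 up to 88.5 to 91.1 cpm, and those of the oligodendrocyte lineage (Olig2 and Pdgfra) from 34.1 to 45.3 up to 129 to 149 cpm. Endothelial and microglial markers were near 0, as neither list summed to more than 3.53 cpm in any 0 h library. These mixtures moved with stage, and their part in the differences below was not tested. The library-wide conversion rate at 0 h was 1.01% to 1.44% at E11.5, where replicate C stood apart as the highest, 1.03% to 1.18% at E14.5 and 1.80% to 1.91% at E16.5.

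The writers install the mark within the motif GGACT and its relatives. The mark itself was not measured here, but GGACT can be looked up in the members' own mRNAs. In the longest coding isoform (GENCODE release M21, GRCm38), Alkbh5 held 10 copies, Zc3h13 7, Wtap and Ythdf2 5 each, Mettl3 4, Mettl14 and Fto 3 each, Ythdf1 and Ythdf3 1 each and Ythdc1 0, counted on the sense strand. Of 8809 protein-coding transcripts with a half-life at all stages, 93.3% held at least 1 copy, and 62.9% held a copy in the 3′ UTR. Per kb of mRNA, Wtap held 2.43 copies, Mettl3 1.98 and Alkbh5 1.75, against a median of 1.03 over those transcripts. Ythdf2 (1.21), Zc3h13 (1.14) and Mettl14 (1.09) lay nearer that median. Fto (0.84), Ythdf1 (0.44), Ythdf3 (0.20) and Ythdc1 (0) lay below it. Of the 10 copies in Alkbh5, 8 lay in its 3′ UTR of 4097 nt. The following lines hold, 5′ to 3′ on the mRNA strand, the first copy after the stop codon in the 4 members with the largest changes in level between E11.5 and E16.5 or the shortest or longest half-lives, with the motif in capitals and 10 bases on each side. A match is a description of the sequence and not a methylated site.
Mettl3: caccttaagaGGACTgtttacgcaa
Alkbh5: tgccctcttgGGACTctggctaatc
Fto: gagagagcatGGACTccgatttcaa
Ythdf2: aagaaaattaGGACTttttttctta
These windows lie in the 3′ UTR at chr14:52294908-52294932 (minus strand, Mettl3, 59 nt past the stop codon), chr11:60554423-60554447 (plus strand, Alkbh5, 17 nt), chr8:91667343-91667367 (plus strand, Fto, 917 nt) and chr4:132186832-132186856 (minus strand, Ythdf2, 77 nt) of GRCm38.

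The level of each member at 0 h was compared between stages to ask whether the machinery is held at a steady level over neurogenesis. All 10 members passed the filter on low counts and were tested among 18408 genes with edgeR's quasi-likelihood test on covered T positions, 3 replicates per stage. Between E11.5 and E16.5 the members went both ways: Mettl3, Ythdf3 and Alkbh5 fell, Wtap, Zc3h13, Ythdc1 and Fto rose, and Mettl14, Ythdf1 and Ythdf2 did not pass the test. That is 7 of 10 called members, 4 higher and 3 lower, where 64.4% of all tested genes were called (31.4% higher and 33.1% lower). From E11.5 to E14.5, 5 of 10 were called, 1 higher and 4 lower (48.6% of all genes, 25.1% higher and 23.5% lower), and from E14.5 to E16.5, 6 of 10, 3 each way (49.5% of all genes, 24.1% higher and 25.4% lower). Each of these shares is near the background, and the counts are read as no result about the members as a set. Replicates did not overlap between stages for 5, 6 and 8 members from E11.5 to E14.5, E14.5 to E16.5 and E11.5 to E16.5, and for 55.4%, 61.4% and 71.4% of all genes. No member changed beyond 2-fold in any pair of stages, whereas 16.1%, 13.1% and 29.3% of all genes were called beyond 2-fold in the same 3 pairs. The members' stage means ran from 23.3 to 214.6 cpm, above the median tested gene (12.5 to 12.9 cpm by stage). These shares thus include many weaker genes, and no share among genes of like level is given. The median log2 fold change of the 10 members between E11.5 and E16.5 was 0.03, and that of all tested genes was -0.04.

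**Figure D1:**
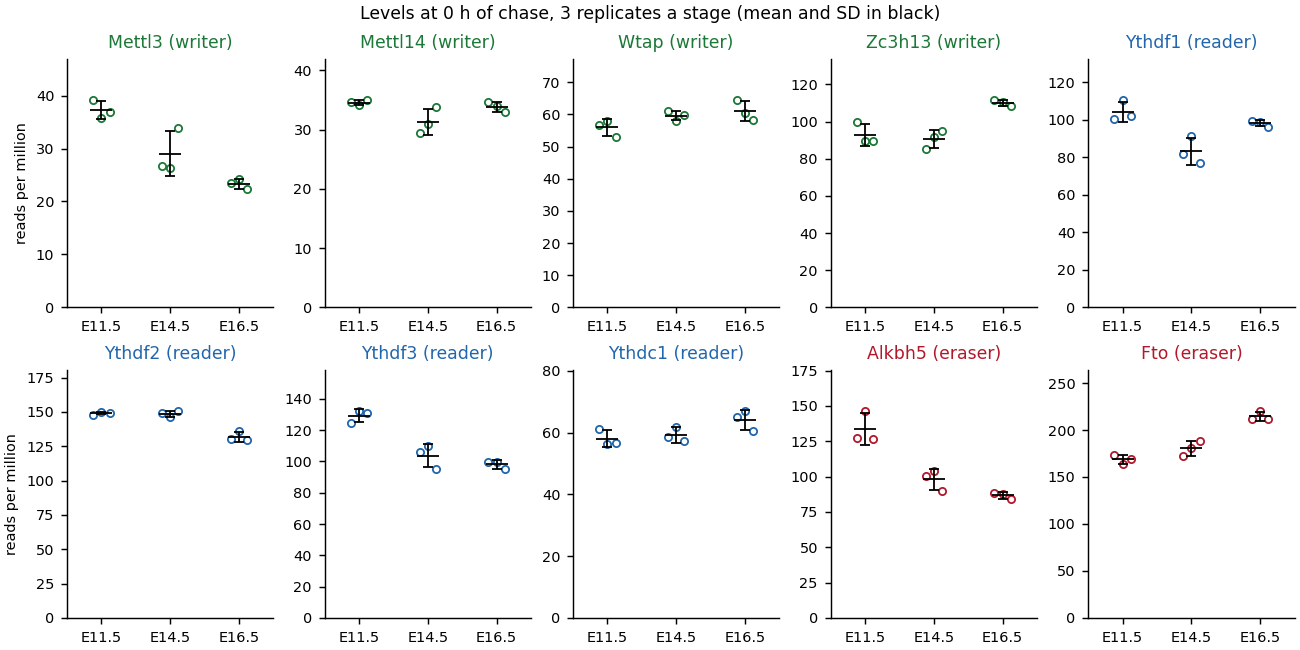
Level of each member at 0 h of chase in cpm (y axis, from 0) by stage (x axis). Open circles are the 3 replicates of a stage and black bars the mean and SD. Mettl3 and Alkbh5 step down with stage, from 37.3 to 23.3 cpm and from 133 to 86.8 cpm on average, and Fto steps up from 169 to 215 cpm.

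Among the writers, Mettl3, the catalytic subunit of the methyltransferase, measured 39.1, 35.8 and 36.9 cpm at E11.5, 26.8, 26.3 and 33.9 cpm at E14.5, and 23.4, 24.2 and 22.3 cpm at E16.5 (replicates A, B and C). The 3 stages did not overlap. Its log2 fold change was -0.58 ± 0.10 (SE) between E11.5 and E16.5 (edgeR adjusted p = 0.000165), -0.32 for the step to E14.5 (adjusted p = 0.0152) and -0.26 for the step from there to E16.5 (adjusted p = 0.0418). The step to E14.5 was lost without E11.5 replicate A or E14.5 replicate A or B (adjusted p up to 0.0692). The step to E16.5 was lost in 9 of 16 alternatives: RLE in place of TMM factors, more than 500 covered Ts required in every library, DESeq2, the replicate letter as a block, and without E11.5 replicate A, E14.5 replicate C or any single E16.5 replicate. Exons of Mettl3 share 933 bases (18.4% of its exon length) with Tox4 on the opposite strand; the library kit keeps strand, but how the counting used it is not given in the sources used here.

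Mettl14, which pairs with Mettl3 in the core and helps it hold RNA, behaved differently. It measured 34.7, 34.1 and 34.9 cpm at E11.5, 29.4, 30.9 and 33.7 cpm at E14.5, and 34.6, 34.1 and 32.9 cpm at E16.5. Its E14.5 libraries lay just below those of E11.5, but it was not called in any pair of stages (log2 fold change 0.08 ± 0.07 between E11.5 and E16.5, edgeR adjusted p = 0.38). The ratio of Mettl3 to Mettl14 within a library, which does not depend on scaling between libraries, was 1.13, 1.05 and 1.06 at E11.5, 0.912, 0.851 and 1.00 at E14.5 and 0.678, 0.711 and 0.677 at E16.5. The ratios of the 3 stages did not overlap, and the lowest ratios were those of E16.5. The ratio was set up after the levels had been seen and is given without a test.

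Wtap, the adaptor that brings the core to nuclear speckles, measured 56.8, 58.0 and 53.1 cpm at E11.5, 61.0, 58.0 and 59.9 cpm at E14.5, and 64.3, 60.5 and 58.3 cpm at E16.5. It rose by a log2 fold change of 0.24 ± 0.07 between E11.5 and E16.5 (edgeR adjusted p = 0.00674). The rise to E14.5 (0.18, adjusted p = 0.0395) rested on individual libraries, as it was lost without A or C of E11.5, A or C of E14.5, or A or B of E16.5, and also on recovered reads. Zc3h13, which anchors the complex in the nucleus, was level from E11.5 (99.8, 89.3 and 89.6 cpm) to E14.5 (85.1, 91.9 and 94.8 cpm), with a log2 fold change of 0.00 ± 0.06 (edgeR adjusted p = 0.991). At E16.5 it stood at 111, 110.4 and 109 cpm, above every earlier library, with a log2 fold change of 0.30 ± 0.06 over E14.5 (adjusted p = 0.00109). The summed level of the 4 writers was 214.5 to 230.3 cpm at E11.5, 202 to 222 cpm at E14.5 and 222 to 234 cpm at E16.5.

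Among the cytoplasmic readers, Ythdf2, which recruits deadenylases to methylated mRNAs, was the steadiest from E11.5 (148, 150.1 and 149 cpm) to E14.5 (149, 146 and 151 cpm). At E16.5 it measured 130.2, 136 and 129 cpm, below all earlier libraries, with a log2 fold change of -0.16 ± 0.05 against E14.5 (edgeR adjusted p = 0.0265). This step was lost in 7 of 16 alternatives (DESeq2, RLE factors, more than 500 covered Ts, the letter as a block, and without A of E14.5 or A or C of E16.5) and was -0.26 in the 12 h libraries. Against E11.5 Ythdf2 was not called (-0.10, adjusted p = 0.109). Ythdf3, a paralogue that acts with the other YTHDF proteins, measured 125, 132 and 131 cpm at E11.5, 106, 109.8 and 95.3 cpm at E14.5, and 99.8, 99.9 and 95.1 cpm at E16.5. Its E11.5 libraries lay above all later libraries, and its log2 fold change was -0.35 ± 0.07 between E11.5 and E16.5 (edgeR adjusted p = 0.00054). With the 12 h libraries in place of those at 0 h, its step from E11.5 to E14.5 (-0.27) shrank to -0.07 and was not called, and the change to E16.5 was -0.21 (adjusted p = 0.00794).

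Ythdf1, a reader linked to translation, was lowest at E14.5. It measured 101, 110.4 and 102 cpm at E11.5, 81.6, 91.3 and 77.1 cpm at E14.5, and 99.4, 99.0 and 96.4 cpm at E16.5. The E14.5 libraries lay below those of both other stages, with log2 fold changes of -0.26 ± 0.07 against E11.5 (edgeR adjusted p = 0.00739) and 0.23 ± 0.07 from E14.5 to E16.5 (adjusted p = 0.014). Between the outer stages it was not called (-0.03, adjusted p = 0.745), although its E16.5 libraries all lay below those of E11.5 in cpm. In the 12 h libraries the rise to E16.5 was 0.11 and was not called (adjusted p = 0.129), and E16.5 was called lower than E11.5 (-0.15, adjusted p = 0.0315). Ythdc1, the nuclear reader that acts in splicing and export, measured 61.3, 56.2 and 56.8 cpm at E11.5, 58.4, 62.0 and 57.2 cpm at E14.5, and 65.0, 67.0 and 60.6 cpm at E16.5, ranges that overlap. It was called between E11.5 and E16.5 (0.22 ± 0.06, edgeR adjusted p = 0.008), but not in the 12 h libraries, where the log2 fold change was 0.01 (adjusted p = 0.878).

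The 2 erasers moved in opposite directions. Alkbh5, a nuclear demethylase of m6A, measured 127, 146 and 127 cpm at E11.5, 101, 104 and 89.8 cpm at E14.5, and 88.6, 87.7 and 84.2 cpm at E16.5. Its log2 fold change was -0.57 ± 0.07 between E11.5 and E16.5, with the smallest adjusted p of the 10 members (edgeR adjusted p = 1.82e-05). It was -0.36 to E14.5 (adjusted p = 0.00141) and -0.21 from E14.5 on (adjusted p = 0.0326), and the second step was lost in 9 of 16 alternatives (DESeq2, RLE factors, recovered reads, more than 500 covered Ts, and without A or B of E14.5 or any E16.5 replicate). Fto, a demethylase of m6A and of the cap-adjacent m6Am, measured 173, 164 and 169 cpm at E11.5, 173, 180.4 and 188 cpm at E14.5, and 212, 220.2 and 212 cpm at E16.5. Its E16.5 libraries lay above all others, with a log2 fold change of 0.41 ± 0.06 over E11.5 (edgeR adjusted p = 2.25e-05) and 0.28 ± 0.06 over E14.5 (adjusted p = 0.00111). In the 12 h libraries these were 0.20 (adjusted p = 0.00411) and 0.16 (adjusted p = 0.0232). The ratio of Fto to Alkbh5 within a library was 1.36, 1.12 and 1.34 at E11.5, 1.72, 1.74 and 2.09 at E14.5 and 2.39, 2.51 and 2.52 at E16.5, without overlap between stages. The sum of the erasers was 296 to 311 cpm at E11.5, 273 to 284 cpm at E14.5 and 296 to 308 cpm at E16.5.

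Levels of different genes can be compared only per length. In cpm per kb of all annotated exons, at E11.5, Ythdf2 (32.6 cpm per kb) and Ythdf1 (31.5) stood highest and overlapped within their SDs of 0.238 and 1.60. Ythdf3 (24.1) and Alkbh5 (22.3) followed and overlapped within SDs of 0.757 and 1.87. Zc3h13 (14.8) and Fto (13.0) came next, then Wtap (8.96) and Mettl3 (7.35), and Mettl14 (4.66) and Ythdc1 (4.25) were lowest. At E14.5 the order was the same but for these last, at 4.22 and 4.34. At E16.5 Mettl3 (4.59), Mettl14 (4.56) and Ythdc1 (4.70) lay within each other's SD at the bottom of the order. The order depends on the length used, since exons of all isoforms add up to 13031 nt for Fto and 13651 nt for Ythdc1. Per kb of the longest coding isoform, Fto was first and Ythdf1 the next at all 3 stages.

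The other m6A genes were taken from a fixed list of 17, of which 16 were in the tables; Rbm15b is not analysed here. Between E11.5 and E16.5, 4 of the 16 rose and 9 fell, 13 of 16 in all beside 64.4% of all genes, and 4 passed 2-fold (29.3% of all genes). From E11.5 to E14.5, 3 rose and 4 fell (48.6% of all genes called), and from E14.5 to E16.5, 2 rose and 8 fell (49.5%). Of the rest of the writer complex, Virma (-0.27) and Rbm15 (-0.68) fell and Cbll1 (0.24) rose between E11.5 and E16.5. The steepest were the IGF2BP readers, which bind and stabilise target mRNAs and are abundant in embryonic tissue. Igf2bp1 measured 52.1, 45.3 and 47.0 cpm at E11.5, 17.8, 20.0 and 18.2 cpm at E14.5, and 8.94 to 9.03 cpm at E16.5 (log2 fold change -2.38 ± 0.10 between E11.5 and E16.5, edgeR adjusted p = 3.57e-10). Igf2bp2 measured 194, 189 and 179 cpm at E11.5, 76.2, 80.5 and 68.9 cpm at E14.5, and 23.4, 30.8 and 24.3 cpm at E16.5 (-2.77 ± 0.10, adjusted p = 1.4e-10).

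The third paralogue, Igf2bp3, measured 195, 180.5 and 188 cpm at E11.5 and 55.5, 57.9 and 55.6 cpm at E16.5 (-1.67 ± 0.06, edgeR adjusted p = 2.22e-10; 18.7% of its exon bases lie opposite Malsu1), with E14.5 in between at 93.2, 97.3 and 105 cpm. The replicates of the 3 stages did not overlap for any of the 3 IGF2BP genes. Rbmx, an RNA-binding protein reported to bind near methylated sites, went the other way. It measured 109.8, 105 and 96.7 cpm at E11.5, 199, 190.0 and 219.7 cpm at E14.5, and 216, 225 and 218 cpm at E16.5, with a log2 fold change of 1.02 ± 0.07 from E11.5 to E14.5 (edgeR adjusted p = 5.51e-08). Between E11.5 and E16.5 the 10 members spanned log2 fold changes from -0.58 to 0.41, and the 16 other genes from -2.77 to 1.17.

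**Figure D2:**
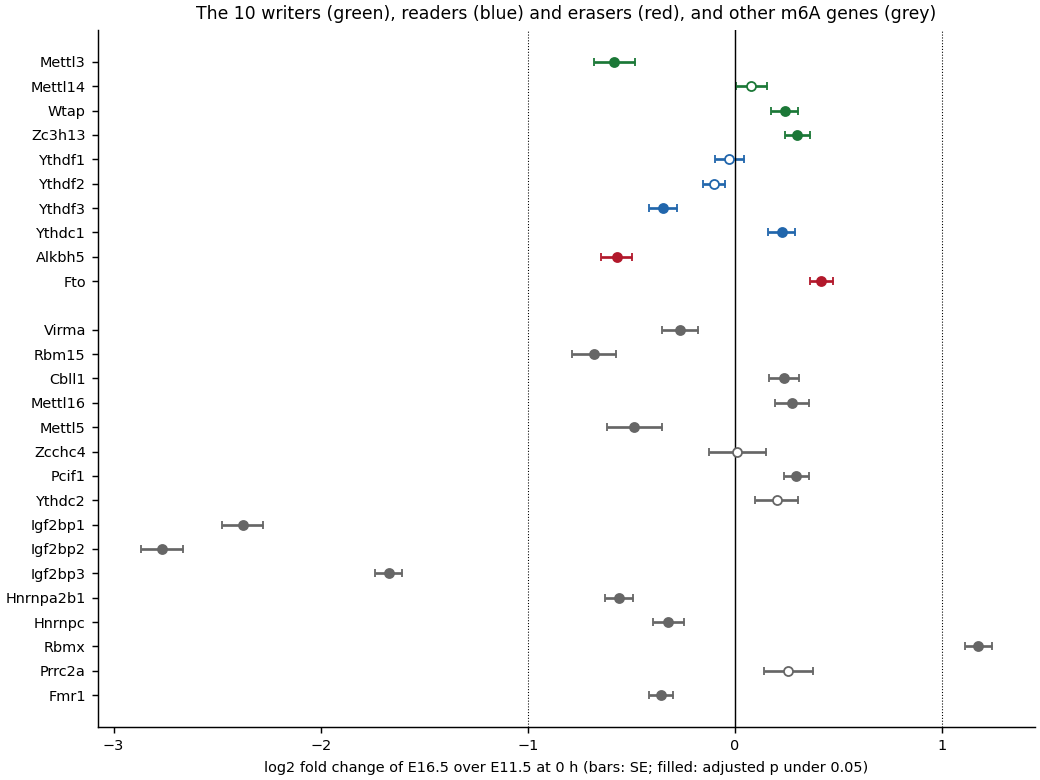
Log2 fold change of E16.5 over E11.5 at 0 h (x axis) for the 10 members, coloured by role, and the 16 other m6A genes in grey. Points are edgeR estimates from 3 replicates per stage with bars of 1 SE, filled symbols had an adjusted p below 0.05, and dotted lines mark a log2 fold change of 1 either way; every member lies inside the lines, and Igf2bp1, Igf2bp2 and Igf2bp3 lie far to the left.

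Likeness of pattern was measured as Pearson's r of log2(cpm + 1) over the 45 libraries. These share pools and stages, so r is a description. Alkbh5 was closest to Ythdf3 among the members (r = 0.86), with r = 0.90, 0.59 and 0.69 over the 15 libraries of each stage in order of age. Within E14.5 and E16.5, Alkbh5 was closer to Ythdf1 (0.64 and 0.92). Mettl3 was closest to Alkbh5 (0.71) and farthest from Fto (-0.66), but within stages Mettl3 and Alkbh5 had r = 0.34, -0.74 and -0.42. Mettl14 was closest to Ythdf1 (0.61), Wtap to Mettl14 (0.57), Zc3h13 and Fto to each other (0.65), Ythdf1 to Ythdf3 (0.62), Ythdf2 to Alkbh5 (0.42) and Ythdc1 to Zc3h13 (0.59). Among 11505 other genes with a mean of at least 5 cpm, those most like Alkbh5 were Unc119b (0.97), Ajuba (0.96) and Rprd1b (0.96).

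A half-life from loss of label is easiest to read where the level of the RNA holds still, so levels at 12 h of chase were set against those at 0 h within each stage (edgeR, 18 libraries, 17224 genes). At E11.5 no member was called, and none had an unadjusted p under 0.05, while 25.2% of all genes were called. In cpm all 10 were lower at 12 h than at 0 h on average, from 37.3 to 28.2 cpm for Mettl3 and from 169 to 155 cpm for Fto, whereas after TMM scaling the log2 changes ran from -0.16 for Mettl3 to 0.09 for Fto. At E14.5 no member was called either (19.8% of all genes), although 2 had an unadjusted p under 0.05. These were Mettl3 (-0.24, adjusted p = 0.0822) and Ythdf3 (0.18, adjusted p = 0.0532). With the pool as a block, since the wells of a letter come from the same cells, both were called at E14.5 (edgeR adjusted p = 0.0179 and 0.0233). At E16.5, Mettl14 (-0.20 ± 0.07, edgeR adjusted p = 0.0451) and Ythdc1 (-0.23 ± 0.07, adjusted p = 0.0236) fell over the chase, 2 of 10 members beside 19.1% of all genes (7.47% lower), and with the pool as a block Mettl3 was called too (-0.21, adjusted p = 0.0394). Both calls at E16.5 were lost when any single E16.5 replicate was left out, and that of Mettl14 also without E11.5 replicate C.

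For Ythdc1 at E16.5, the levels behind its call over 12 h were 65.0, 67.0 and 60.6 cpm at 0 h and 56.0, 49.0 and 53.4 cpm at 12 h, which do not overlap. For Mettl14 they were 34.6, 34.1 and 32.9 cpm at 0 h and 29.9, 30.3 and 27.7 cpm at 12 h, again without overlap. The change over 12 h was also compared between stages. No member differed (5.32%, 0.43% and 7.36% of all genes did for E14.5 against E11.5, E16.5 against E14.5 and E16.5 against E11.5), and the nearest was Fto, whose change at E16.5 was lower than at E11.5 by 0.21 on the log2 scale (edgeR adjusted p = 0.0619, and 0.0375 with the pool as a block). Taking all members and stages, changes over 12 h lay between -0.24 and 0.18.

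Levels at 2 h of chase, which entered none of the tests, stood apart from those at 0 h for some members. This comparison was chosen after the values were seen and is given without a test. Mettl3 measured 32.6, 30.3 and 31.2 cpm at E11.5, 20.9, 21.4 and 26.0 cpm at E14.5, and 17.7, 17.6 and 18.1 cpm at E16.5 at 2 h, which was 84.2%, 78.5% and 76.2% of its mean at 0 h and below all 3 replicates at 0 h of the same stage. Ythdc1 was lower without overlap at E11.5 and E14.5 (81.4% and 75.8% of 0 h) and overlapped at E16.5 (85.5%). Wtap and Ythdf2 were higher at 2 h than at 0 h without overlap at all 3 stages. In all, 5, 5 and 6 members did not overlap at the successive stages, beside 14.3%, 18.2% and 24.6% of all genes. The comparison is in cpm without TMM scaling, and the shares of all genes include many weaker genes. No share among genes of like level is given, so these counts are read as no result about the members as a set. Libraries of 2 h and 0 h come from separate wells of the same pools.

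The conversion rate at 0 h is the share of covered Ts read as C, taken here as a measure of label after 20 h. It also counts T-to-C changes that do not come from label. Members had 8147 to 135024 covered Ts in a library at 0 h, and the widest Wilson 95% interval was 1.65% to 2.25% around 1.93% (Mettl3, E16.5 replicate A), which covers counting error only. At E11.5 the mean rate ran from 1.09% ± 0.239 (SD, n = 3) for Mettl3 to 1.48% ± 0.0962 for Zc3h13, and the median over 12522 genes was 1.19%. At E14.5 it ran from 1.12% for Fto to 1.38% for Mettl14 (all genes 1.13%), and at E16.5 from 1.86% for Ythdf1 to 2.23% for Zc3h13 (all genes 1.84%). Of the 10 members, 9 lay above the median gene at E11.5, again 9 at E14.5, and all 10 at E16.5.

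Zc3h13 carried the most label of the members at E11.5 (1.43%, 1.43% and 1.59%) and at E16.5 (2.25%, 2.18% and 2.24%). Mettl3 changed the most in rank, with 0.932%, 0.968% and 1.36% at E11.5, 1.26%, 1.30% and 0.919% at E14.5, and 1.93%, 2.08% and 2.00% at E16.5. The mean rate of every member was higher at E16.5 than at the other stages, with Mettl14 replicate C at E11.5 (1.93%) the only earlier value to reach the range of E16.5, and so was the rate of the whole library (1.86% ± 0.0573 against 1.10% ± 0.0763 at E14.5). On the main scale, log2 of the rate over the library median, no member was called by limma in any pair of stages. By that test 0.16% of 12522 genes were called between E11.5 and E14.5 and 17.1% in each pair with E16.5. The nearest was Mettl3 between E11.5 and E16.5 (0.25 ± 0.10, limma adjusted p = 0.114), the only member with an unadjusted p under 0.05 in any pair.

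Without scaling to the library, all 10 members were called higher at E16.5 than at E14.5, as were 82% of all genes. All 10 were also called higher than at E11.5, for which no share of all genes is given. The rate of the whole library was 1.86% at E16.5 and 1.18% at E11.5 on average. Median rates at 0 h by role were 1.31%, 1.23% and 1.24% for writers, readers and erasers at E11.5, 1.31%, 1.15% and 1.17% at E14.5, and 2.03%, 1.92% and 1.92% at E16.5. The writers' median was above the readers' at each stage, with ranges that overlapped at each stage (at E16.5, 1.94% to 2.23% for writers and 1.86% to 2.07% for readers).

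During the chase the members lost label at different speeds. After 2 h, Ythdf2 had kept 54.2% ± 4.06 (SD, n = 3) of its 0 h rate at E11.5 and 51.8% ± 3.15 at E14.5, where the median of 9505 transcripts was 84.2% and 89.5%, which put it at percentiles 5.18 and 3.32. Fto had kept 90.2% ± 6.92 and 100.2% ± 5.17, and Mettl3 91.6% ± 2.37 and 101% ± 15.8, above the median transcript at both stages. At E16.5 the median transcript had kept 78.6%, and Mettl3 70.6% ± 3.05. The curves flattened late: of 30 curves per stage (10 members, 3 replicates), 14 were higher at 12 h than at 8 h at E11.5, 12 were so at E14.5, and 8 at E16.5. At 12 h the members had kept 15.03% to 21.8% of the starting rate at E11.5, 16.54% to 27.5% at E14.5 and 7.41% to 16.2% at E16.5.

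**Figure D3:**
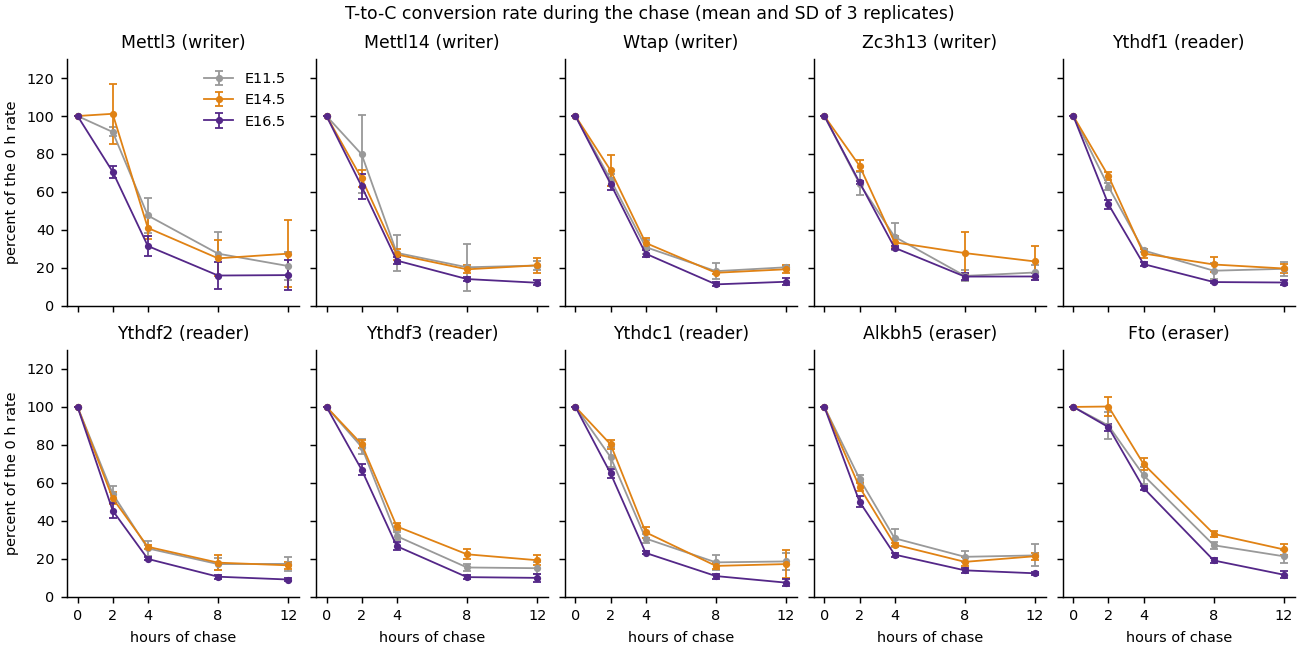
T-to-C conversion rate as a percentage of the 0 h rate (y axis) over hours of chase (x axis), mean and SD of 3 replicates, 1 panel per member and 1 line per stage. At 4 h Ythdf2 is the lowest member and Fto the highest at every stage, E16.5 ends lowest in every panel, and most lines are flat from 8 to 12 h.

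Half-lives were refitted from these rates with a single exponential through 100% at 0 h. All 10 members passed the filters in all 9 replicates, as did 9505 transcripts. Most members were short-lived by this fit. Of the 10, 8 lay below the median transcript of the stage at E11.5 (median 4.43 h over 10858 transcripts), 8 at E14.5 (4.60 h over 10686) and 9 at E16.5 (3.48 h over 11850). Among the 9505 transcripts, 7 members ranked in the lowest 25% at E11.5, 6 did at E14.5, and 5 at E16.5. The result depends on the model: with a log-linear fit and a free intercept, 3, 4 and 3 of the 10 lay below the medians over all transcripts of 4.81, 4.87 and 3.53 h in stage order. Mettl3 and Mettl14, counted among the 10, did not pass the filters in all 9 replicates under that fit.

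Ythdf2 had the shortest mean half-life of the 10 at every stage: 2.43, 2.82 and 2.13 h in E11.5 cells, 2.20 to 2.52 h in E14.5 cells, and 1.97, 1.77 and 1.75 h in E16.5 cells, at percentiles 3.95, 3.54 and 5.34 of the stage. At E16.5 all 3 values lay below those of every other member. By this fit the other YTHDF genes had longer means. Ythdf1 had 3.17, 2.93 and 2.68 h, then 3.12, 2.98 and 3.30 h, then 2.09, 2.12 and 2.28 h at the 3 stages, and overlapped with Ythdf2 at E11.5. Ythdf3 had 3.30, 3.37 and 3.24 h, then 4.14, 3.62 and 3.84 h, then 2.67, 2.65 and 2.499 h, and its values lay above those of Ythdf2 at every stage without overlap. The nuclear reader Ythdc1 had 3.26 ± 0.144 h, 3.49 ± 0.204 h and 2.44 ± 0.118 h (SD, n = 3), between percentiles 17.7 and 20.8.

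Fto had the longest: 5.25, 6.15 and 5.07 h in E11.5 cells, 6.78, 6.53 and 6.27 h in E14.5 cells, and 4.53, 4.48 and 4.45 h in E16.5 cells, at percentiles 73.3, 84.0 and 72.4. At E14.5 and E16.5 it lay above every value of every other member. Alkbh5, the other eraser, had 3.16, 3.48 and 2.68 h, then 2.61, 2.81 and 2.71 h, then 2.03, 2.03 and 2.22 h, at percentiles 13.9, 6.77 and 10.8. By this fit the half-lives of the erasers did not overlap at any stage. With a log-linear fit and a free intercept the order turned, with means of 5.48, 5.38 and 4.09 h for Alkbh5 and 4.83, 5.30 and 3.52 h for Fto in stage order.

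Among the writers, Mettl3 had the longest mean at each stage, with 5.19, 5.82 and 3.83 h in E11.5 cells, 5.04, 4.22 and 5.86 h in E14.5 cells, and 3.05, 2.78 and 3.54 h in E16.5 cells (percentiles 62.8, 60.5 and 39.9). Its partner Mettl14 had 3.47, 4.95 and 2.22 h at E11.5, the widest spread of any member, then 3.13, 2.82 and 3.14 h and 2.36, 2.41 and 2.77 h. The low value of 2.22 h was that of E11.5 replicate C, where the rate of Mettl14 at 0 h was 1.93% against 1.12% and 1.04% in A and B. Wtap had 3.11 ± 0.242 h, 3.28 ± 0.358 h and 2.62 ± 0.118 h (SD, n = 3). Zc3h13 had 2.65, 3.49 and 3.22 h in E11.5 cells, 3.09, 3.83 and 4.94 h in E14.5 cells, and 2.83, 2.89 and 2.92 h in E16.5 cells.

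**Figure D4:**
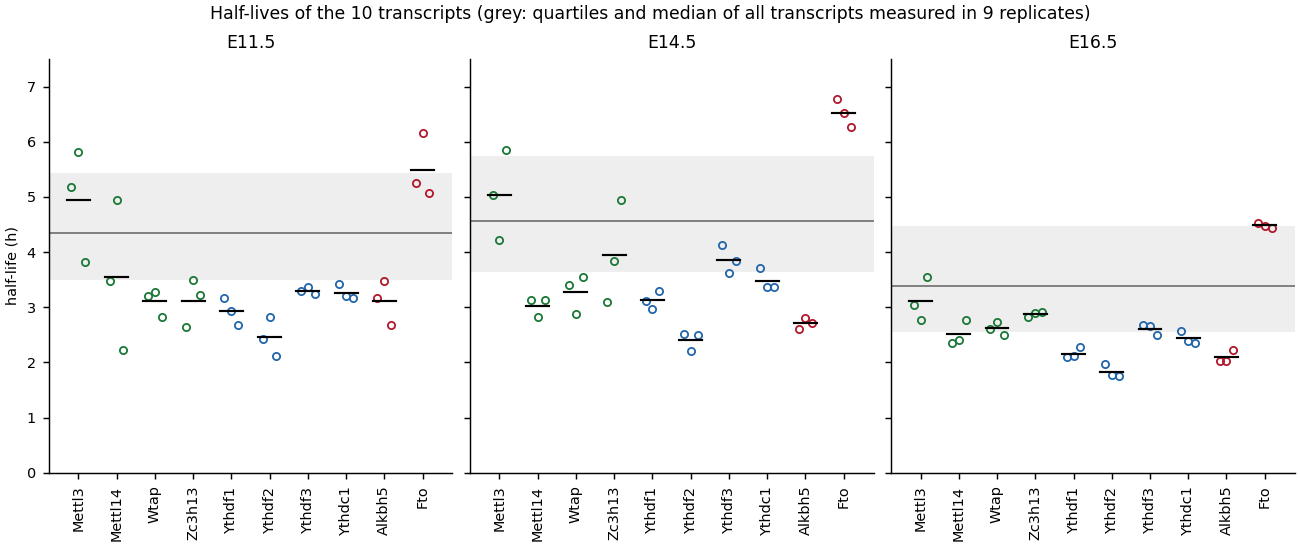
Half-life in hours (y axis) of the 10 members (x axis) at each stage. Open circles are the 3 replicates (green writers, blue readers, red erasers), black lines their means, the grey line the median and the grey band the quartiles of 9505 transcripts with half-lives in all 9 replicates; the mean of Fto lies above the band and that of Ythdf2 below it at every stage.

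Writers and readers were set side by side without a test, as the genes were chosen and not drawn. The median half-life of the 4 writers was 3.33 h in E11.5, 3.62 h in E14.5 and 2.75 h in E16.5 cells, and that of the 4 readers 3.10, 3.31 and 2.30 h. The writers' median was thus the higher at each stage, but both groups lay below the median transcript by this fit, and their ranges overlapped (3.11 to 4.94 h for writers and 2.46 to 3.30 h for readers at E11.5). At E16.5 the ranges were 2.52 to 3.12 h and 1.83 to 2.61 h. With the log-linear fit the writers' medians (4.96, 5.50 and 4.04 h) lay above the median transcript at each stage, and those of the readers (4.77, 4.79 and 3.44 h) below it. These writers' medians lay midway between Mettl3 and Mettl14, which did not pass the filters in all 9 replicates under that fit. The place of the writers by this fit therefore rests on fits that failed the filters. The upper end of the writers was Mettl3 and the lower end of the readers was Ythdf2 at each stage. The lowest 25% of transcripts held 2 writers and 4 readers at E11.5, 2 writers and 3 readers at E14.5, and 1 writer and 3 readers at E16.5.

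Half-lives in hours were shorter at E16.5 for all 10 members. Every E16.5 value lay below every E14.5 value of the same gene for 10 of 10 members, which was also true of 69.5% of 9505 transcripts. Against E11.5 the same held for 8 of 10, all but Mettl14 and Zc3h13, beside 51.5% of transcripts. The ratio of mean half-lives, E16.5 over E14.5, ran from 0.620 for Mettl3 to 0.830 for Mettl14 with a median of 0.714, and the median over all transcripts was 0.739. From E11.5 to E14.5, Ythdf3 and Fto lengthened without overlap of replicates (ratios 1.17 and 1.19), which 10.8% of transcripts did (none of the members, and 2.25% of transcripts, shortened without overlap), and the members' median ratio of 1.06 was close to that of all transcripts, 1.05.

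Because half-lives were shorter at E16.5 for most transcripts, stages were compared on half-lives z-scored within each replicate. On this scale no member was called by limma, either over any stage (F-test, 3.15% of 9505 transcripts called) or between E11.5 and E14.5 (0.2%), E14.5 and E16.5 (0.884%) or E11.5 and E16.5 (4.7%). A single member had an unadjusted p under 0.05, Alkbh5 between E11.5 and E14.5 (-0.22 ± 0.09 SD units, limma adjusted p = 0.368). The largest shift was that of Mettl3 between E11.5 and E16.5 (-0.44 ± 0.19, limma adjusted p = 0.231), followed by the same gene from E14.5 to E16.5 (-0.38, adjusted p = 0.369). With SEs from 0.09 to 0.24 SD units and 3 replicates, the members' shifts were not called, and the result does not show that relative half-lives were equal.

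In unscaled hours, Mettl3, Ythdf1, Ythdf3, Ythdc1 and Fto were called shorter at E16.5 than at E14.5, 5 of 10 members beside 37.9% of all transcripts. The difference was -1.92 h for Mettl3 (limma adjusted p = 0.0369) and -2.04 h for Fto (adjusted p = 0.0154). The label was also denser at E16.5. As a stand-in for the background of conversions, the 1st percentile of the 12 h rates of genes with over 10000 covered Ts was taken in each replicate (0.108% to 0.138%). It comes from the same labelled libraries, so the lowest 12 h rates lie near it by construction. Whether it holds remaining label was not tested. With this background subtracted, an alternative chosen after seeing the data, the members' median half-life was 2.45, 2.55 and 2.23 h at the 3 stages, in place of 3.23, 3.30 and 2.54 h (means of the replicate medians), so that the gap between E14.5 and E16.5 was smaller. The order of the extremes was the same, with Ythdf2 shortest, Mettl3 the next to longest and Fto longest at each stage. With a log-linear fit and a free intercept, in contrast, Fto ranked 4, 7 and 3 from the shortest, Alkbh5 10, 8 and 8 and Ythdf2 5, 4 and 4, and Mettl3 and Mettl14 no longer passed the filters in all 9 replicates.

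Of the other m6A genes, 15 had half-lives at all stages. In stage order, Rbm15 (2.47 ± 0.209, 2.21 ± 0.224 and 1.70 ± 0.0453 h; SD, n = 3) and Cbll1 (2.26 ± 0.439, 2.14 ± 0.242 and 1.73 ± 0.042 h) had mean half-lives close to or below that of Ythdf2, at percentiles from 1.63 to 4.07 of the stage. Hnrnpa2b1 (8.59 ± 1.16, 9.24 ± 0.347 and 7.55 ± 0.231 h) and Hnrnpc (8.07 ± 1.25, 8.45 ± 0.431 and 5.95 ± 0.0543 h) were the longest-lived of these 15 genes. Igf2bp1, whose level changed more than that of any member, had 3.68 ± 0.725, 3.96 ± 1.31 and 2.92 ± 0.312 h, within the range of the members. Igf2bp2, whose level changed the most, had 4.19 ± 0.410, 4.25 ± 0.291 and 2.32 ± 0.152 h. On z-scored half-lives limma called it lower at E16.5 than at E11.5 (-0.57 SD units). It was the only 1 of these 15 genes called in that pair, beside 4.7% of all transcripts.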

How the data were processed

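SLAM-seq libraries were made by the authors with the Illumina Stranded mRNA Prep kit and processed with SlamDunk 0.4.3 on mm10 and GENCODE M24, per the labels; use of strand in counting is not given in the sources used here. The deposited values were, per gene and library, the count of covered Ts and of converted Ts, the conversion rate as a fraction, reads as CPM, and per replicate a half-life, its R2 and rates relative to 0 h. Gene models here are GENCODE M21. CPM steps gave whole reads for 100% of values within 0.01, and edgeR on those reads called 8314, 8728 and 10598 of 14611 genes (E14.5 over E11.5, E16.5 over E14.5, E16.5 over E11.5).

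Levels were tested on covered Ts with edgeR 4.0.16 (TMM, quasi-likelihood; more than 10 covered Ts in every library of the fit; adjusted p under 0.05 by Benjamini-Hochberg over all genes), rates (log2 over the library median) and half-lives (z-scores within replicate) with limma 3.58.1 in R 4.3.3, and DESeq2 1.42.0 served as an alternative. A covered T is not an independent molecule, since 1 read covers several; the test takes its error from the spread between replicates. Half-lives were refitted by least squares in numpy 2.4.6 (more than 500 covered Ts at each time, R2 above 0.6, under 24 h), and 99.9964% of 109733 fits lay within 1% of the deposited half-life. Wells of 1 letter within a stage come from the same pool, per the labels, and their 12 h and 0 h libraries deviated together (r = 0.12 to 0.58 in 9 pools), so a pool block was run. P-values between stages measure the spread between 3 pools a stage. The main test of 12 h against 0 h took the wells of a pool as independent, which the fit with the pool block did not. All members were named, and of the other m6A genes the 3 with the largest called change without overlap of replicates in each pair of stages; Virma, Rbm15, Cbll1, Hnrnpa2b1 and Hnrnpc fall outside this rule and were chosen after their values were seen. Members and lists were chosen with earlier results of these data known. Tests were checked on simulated data.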

Additional observations from a re-analysis of the deposited data

How the results depend on the processing

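Between E11.5 and E16.5 at 0 h, the number of members called stayed at 7 of 10 under all 16 alternatives. The genes were not always the same: with the 12 h libraries Ythdc1 was lost and Ythdf1 was called lower. From E14.5 to E16.5 the count fell from 6 to 3 with RLE factors, and leaving out 1 replicate gave 3 to 6 there and 3 to 5 from E11.5 to E14.5 (3 without replicate A of E11.5 or of E14.5, and 3 without replicate A or C of E16.5). For 12 h against 0 h at E14.5, where no member was called, DESeq2, recovered reads and a minimum of 500 covered Ts called 1 each, the pool block 2, and leaving out 1 replicate 0 to 1. At E16.5, with 2 members called, the pool block called 3 and leaving out 1 replicate 0 to 4 (0 without any E16.5 replicate, 1 without E11.5 replicate C, 4 without E14.5 replicate C). Replicate letters did not pair stages (r = -0.19 to 0.18), and a block on the letter gave 5, 4 and 7 calls in the 3 stage pairs at 0 h and none for rates or half-lives.

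Without scaling to the library, conversion rates gave 10 calls against E14.5 (82% of all genes were called higher) and 10 against E11.5. No share of all genes is given for the latter. The direction then turned for Mettl14 (0.50), Ythdf2 (0.68) and Alkbh5 (0.62) against E14.5, and for Mettl14 (0.57), Zc3h13 (0.59), Ythdf1 (0.62), Ythdf3 (0.62) and Alkbh5 (0.62) against E11.5, as log2 differences, since the rate of whole libraries was higher at E16.5. Replicates were left out only on the main scale, with scaling to the library, which gave 0 to 1 calls (1 without E14.5 replicate C). Hours without scaling gave 5 calls from E14.5 to E16.5, beside 37.9% of all transcripts called shorter. They gave 3 calls over any stage, for which no share of all transcripts is given. The members' median half-life moved, in stage order, to 2.45, 2.55 and 2.23 h with background subtracted (chosen after seeing the data) and to 4.82, 5.03 and 3.74 h with a log-linear fit (all transcripts 4.81, 4.87 and 3.53 h), in which 8 of 10 members passed in all replicates; the cause was not tested. Subtracting the planned background changed nothing, as it was 0 in every replicate.

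With 3 replicates a stage, no shift in relative half-life was called for a member on the main scale. This does not show that relative half-lives were equal. Mettl3 had the fewest covered Ts and the widest counting interval.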
